A study of Caenorhabditis elegans with 8 samples.

Results

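The 10 genes described here are core parts of the Notch pathway that keeps germline stem cells dividing in the nematode Caenorhabditis elegans, and the RNA regulators that act next to it. They were chosen by gene symbol for their roles, with earlier results of these data known: the Notch receptors glp-1 and lin-12, the ligands lag-2 and apx-1, the effector lag-1, the target genes sygl-1 and lst-1, and the RNA-binding regulators fbf-1, fbf-2 and gld-1. All 10 were found among the 20182 genes of both deposited count tables, 1 for mRNA and 1 for introns.

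In Notch signalling, a ligand on one cell binds a receptor on its neighbour. The receptor is then cut by proteases, and its intracellular part enters the nucleus, where it switches on target genes together with the DNA-binding protein LAG-1. In the worm gonad, the somatic distal tip cell carries the ligand LAG-2, and germ cells near it carry the receptor GLP-1. GLP-1 signalling turns on sygl-1 and lst-1, whose proteins work with the PUF-family proteins FBF-1 and FBF-2 to repress mRNAs of differentiation such as gld-1, so that loss of the receptor sends germ cells into meiosis. LIN-12, the other Notch receptor of the worm, acts mainly in somatic cell fate decisions.

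The series measured total RNA of whole young adults after RNA interference (RNAi) by feeding, begun at the first larval stage, with double-stranded RNA against rege-1, which encodes an RNase domain protein, or with a mock control. The 4 groups, with 2 libraries each, were glp-1 (e2141) animals on rege-1 RNAi, glp-1 (e2141) animals on mock RNAi, animals of the laboratory wild type N2 on rege-1 RNAi, and N2 animals on mock RNAi. The labels place the glp-1 animals at 25 °C, named as the restrictive temperature, and give no temperature for N2, so strain and temperature cannot be told apart. e2141 is a temperature-sensitive loss-of-function allele of the receptor gene that is described here. Nothing in the labels says that the 2 libraries of a group came from separate cultures, so p-values measure the spread between these libraries, which may be technical. In RNA of whole animals, fewer cells of a type and less RNA per cell cannot be told apart.

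Total mRNA counts of the libraries ran from 26127079 to 30093967, and total intron counts from 464385 to 684124. Levels are given as CPM, counts per library total on a fixed scale, with totals corrected by TMM factors, and changes as log2 fold changes with their standard error (SE). A gene was called where edgeR's quasi-likelihood test gave an adjusted p under 0.05 over the 15321 genes tested for mRNA. The gene targeted by the RNAi, rege-1, had 1950 and 1891 mRNA counts in the glp-1 libraries labelled rege-1 RNAi, against 495 and 480 in glp-1 mock. It had 2664 and 2137 in the N2 libraries labelled rege-1 RNAi, against 396 and 354 in N2 mock. Counts assigned to the targeted mRNA were thus higher, not lower, in the libraries labelled rege-1 RNAi (log2 2.11 ± 0.15 SE in glp-1 and 2.70 ± 0.15 SE in N2). Counts in rege-1 introns rose more, to 536 over both glp-1 rege-1 RNAi libraries against 65 in glp-1 mock, and to 7431 over both N2 rege-1 RNAi libraries against 30 in N2 mock (log2 5.54 ± 0.28 SE over both strains). How much of either count came from the fed double-stranded RNA rather than from the animals' own transcript was not tested, nor was a mix-up of labels, so these counts do not give the level of rege-1 mRNA. The libraries are named by their label throughout. The labelled strain was not checked by sequence, since e2141 is not a deletion and its base change was not analysed. Germline and oocyte marker mRNA, given below, was present in every glp-1 library. Whether these animals had lost receptor function, as the label implies, was not tested.

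Compared per length of coding sequence, which allows levels of different genes to be set side by side, gld-1 was the most abundant of the 10 mRNAs with 156 ± 29.9 CPM per kb (SD over 8 libraries). It was followed by glp-1 with 92.5 ± 21.1, lag-1 with 37.9 ± 3.11 and lst-1 with 29.1 ± 3.42 CPM per kb. These 4 mRNAs did not overlap with their neighbours in the order in any of the 8 libraries. Next came sygl-1 with 9.82 ± 2.70, lin-12 with 9.78 ± 2.58, fbf-1 with 7.42 ± 0.67, apx-1 with 6.71 ± 1.77 and fbf-2 with 6.23 ± 0.97 CPM per kb, and each of these overlapped with the next. Last was lag-2 with 0.40 ± 0.12 CPM per kb, below every library of fbf-2. Of all genes tested, 93.2% had a lower mean than gld-1 and 86.9% a lower mean than glp-1, but only 4.41% a lower mean than lag-2. LAG-2 is made by few somatic cells of the gonad, and its mRNA rested on 7 to 19 counts per library.

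Several of the genes lie close to a relative. By the Ensembl release 115 annotation of WBcel235, glp-1 lies on the plus strand of chromosome III from 9092241 to 9099698 and lin-12 on the minus strand from 9060221 to 9071472, a gap of 20768 bases. On chromosome V, lag-2 runs from 3188343 to 3190115 and apx-1 from 3210196 to 3223221, both on the plus strand and 20080 bases apart. On the minus strand of chromosome II, fbf-1 runs from 6078263 to 6080843 and fbf-2 from 6088863 to 6091480, 8019 bases apart. fbf-1 and fbf-2 are near-identical copies, so reads could be split between them in a way the counting does not state. The other genes are lag-1 on chromosome IV from 6095407 to 6110655, and on chromosome I sygl-1 from 12483809 to 12486235, lst-1 from 10588501 to 10590465 and gld-1 from 7695681 to 7698222, all on the plus strand. At their ends, glp-1 overlaps ZK507.1 by 18 bases, lag-1 overlaps M03D4.3 by 9 bases and fbf-1 overlaps H12I13.6 by 15 bases, each on the opposite strand. The ncRNA genes K08B4.41, K08B4.42 and K08B4.43, of 221, 145 and 139 bases, lie within lag-1, also on the opposite strand. They are not among the genes counted. Whether the counting used strand is not given in the sources used here.

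**Figure D1:**
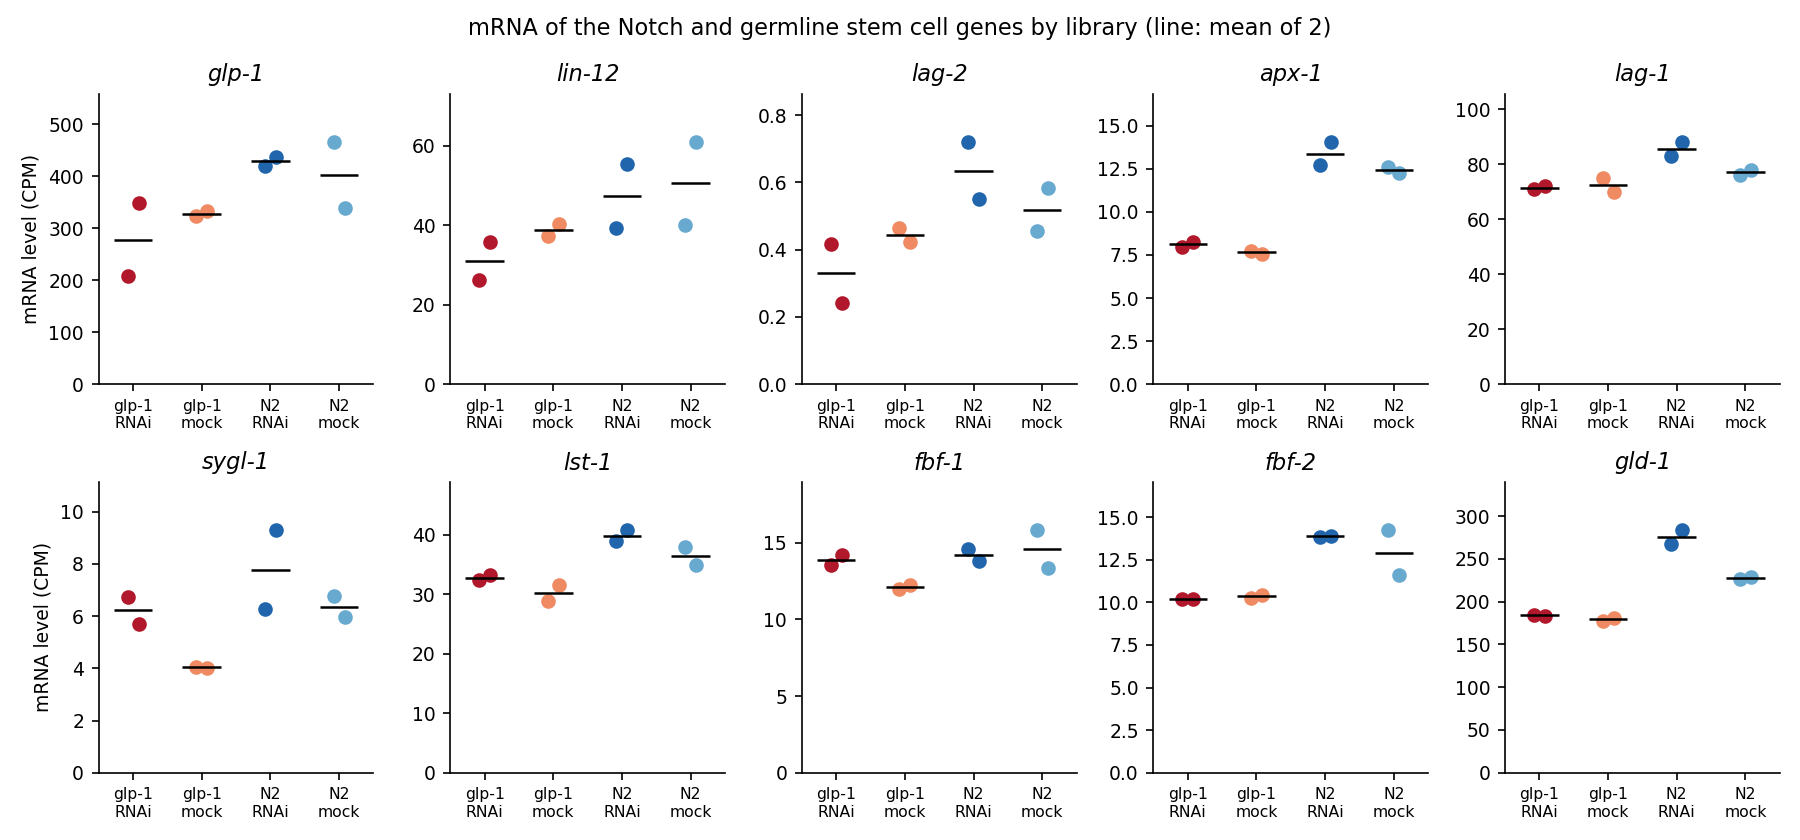
mRNA level in CPM (vertical axes from 0, a separate scale for each gene) of the 10 genes in the 8 libraries, with 1 point per library, a line at the mean of the 2 libraries of a group, and the groups from left to right as glp-1 rege-1 RNAi, glp-1 mock, N2 rege-1 RNAi and N2 mock. In apx-1, lag-1, lst-1, fbf-2 and gld-1 the 4 glp-1 libraries all lie below the 4 N2 libraries, while for glp-1 the glp-1 rege-1 RNAi and N2 mock pairs, and for lin-12 every pair but that of glp-1 mock, are spread more widely.

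The comparison of the strains asks how the stem cell pathway differs in level between animals labelled as the receptor mutant and the wild type. Among the 10 genes, the ligand gene apx-1 was lower in glp-1 animals under either treatment, and gld-1, the regulator of meiotic entry, was lower under rege-1 RNAi. The other 8 genes were not called under either treatment, although the estimates of all 10 were below 0 under both. Under mock, edgeR called 1 of 10 genes lower, where 3.24% of all genes tested were called lower. Under rege-1 RNAi it called 2 of 10 lower, where 7.54% of all genes tested were called lower. All 10 estimates below 0 stood against 49.8% of all genes under mock and 48.4% under rege-1 RNAi. The median log2 change of the 10 genes was -0.30 under mock, where that of all genes was 0.0016, and -0.51 under rege-1 RNAi, where that of all genes was 0.02. The contrasts under mock and under rege-1 RNAi share no libraries. Both come from 1 fit with a shared estimate of spread, and in both strain cannot be told apart from temperature. The second is thus not an independent repeat.

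Of the receptors, glp-1 mRNA stood at 208 and 349 CPM in glp-1 rege-1 RNAi libraries and at 323 and 334 CPM in glp-1 mock libraries. N2 animals had 421 and 438 CPM under rege-1 RNAi and 466 and 338 CPM under mock. The mRNA of the mutated gene was thus present in every glp-1 library, and 1 glp-1 rege-1 RNAi library stood well below the rest. The log2 change of glp-1 mRNA in glp-1 over N2 animals was -0.29 ± 0.22 (SE) under mock (edgeR adjusted p = 0.440) and -0.63 ± 0.23 under rege-1 RNAi (edgeR adjusted p = 0.0743). The value under mock became -0.04 when N2 mock replicate 1 was left out, and -0.51 when replicate 2 was left out instead. The value under rege-1 RNAi turned on the low library: without glp-1 rege-1 RNAi replicate 1 it was -0.30, and without replicate 2 it was -1.07 with an edgeR adjusted p of 0.00245. DESeq2 called glp-1 lower under rege-1 RNAi with all libraries (log2 -0.65, adjusted p = 0.0246).

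lin-12 had 26.3 and 35.9 CPM in glp-1 rege-1 RNAi libraries and 37.2 and 40.4 CPM in glp-1 mock libraries, against 39.2 and 55.4 CPM in N2 rege-1 RNAi and 40.1 and 61.0 CPM in N2 mock libraries. The same glp-1 rege-1 RNAi library was the lowest for both receptors. The log2 change of lin-12 was -0.38 ± 0.22 (SE) under mock (edgeR adjusted p = 0.306) and -0.60 ± 0.23 under rege-1 RNAi (edgeR adjusted p = 0.0826). Leaving out replicate 1 of N2 mock gave -0.65 under mock, and leaving out replicate 2 gave -0.05. Under rege-1 RNAi the lowest value with 1 library left out was -0.87, without glp-1 rege-1 RNAi replicate 2, and the highest -0.33, without N2 rege-1 RNAi replicate 2. It was -0.40 without glp-1 rege-1 RNAi replicate 1. DESeq2 called it lower under rege-1 RNAi (adjusted p = 0.0435). glp-1 and lin-12 have the longest coding sequences of the 10 genes, with 3888 and 4290 bases. After removal of the trend that each library showed over coding length, the log2 changes under rege-1 RNAi were -0.27 for glp-1 and -0.19 for lin-12.

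Of the ligand genes, apx-1, whose product is best known for signalling to GLP-1 in the early embryo, gave the clearest difference. It had 7.96 and 8.25 CPM in glp-1 rege-1 RNAi libraries and 7.75 and 7.56 CPM in glp-1 mock libraries. The N2 libraries had 12.7 and 14.1 CPM under rege-1 RNAi and 12.6 and 12.2 CPM under mock. Every glp-1 library thus lay far below every N2 library, and libraries of a group lay close together. The log2 change was -0.70 ± 0.16 (SE) under mock (edgeR adjusted p = 0.0208) and -0.72 ± 0.16 under rege-1 RNAi (edgeR adjusted p = 0.0144).

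Both calls of apx-1 were lost with some single libraries left out. Under mock the adjusted p was 0.197 and 0.202 without glp-1 mock replicates 1 and 2, and 0.0845 and 0.0590 without N2 mock replicates 1 and 2, while the log2 change stayed between -0.72 and -0.68. It was 0.0573 with size factors from muscle, neuron and pharynx markers. Under rege-1 RNAi it was 0.0554 without glp-1 rege-1 RNAi replicate 1, 0.0999 without N2 rege-1 RNAi replicate 2, and 0.0698 where only the 2 groups compared were fitted.

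lag-2, the ligand of the stem cell niche, had 12 and 7 counts in glp-1 rege-1 RNAi and 15 and 13 counts in glp-1 mock libraries, against 19 and 15 counts in N2 rege-1 RNAi and 13 and 15 counts in N2 mock libraries. At these counts its log2 change was -0.22 ± 0.42 (SE) under mock (edgeR adjusted p = 0.787), with a 95% interval from -1.15 to 0.71, and a difference of this size was not detectable at this depth. Under rege-1 RNAi it was -0.94 ± 0.44 (edgeR adjusted p = 0.151), and the 2 groups did not overlap.

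lag-1, which encodes the DNA-binding protein through which both receptors act, was among the steadiest of the 10 mRNAs. It had 70.9 and 72.1 CPM in glp-1 rege-1 RNAi and 74.9 and 69.99 CPM in glp-1 mock libraries, against 83.0 and 88.1 CPM in N2 rege-1 RNAi and 76.1 and 78.0 CPM in N2 mock libraries. The 4 glp-1 libraries lay below the 4 N2 libraries, by a narrow margin. Its log2 change was -0.09 ± 0.12 (SE) under mock (edgeR adjusted p = 0.669) and -0.26 ± 0.12 under rege-1 RNAi (edgeR adjusted p = 0.137). Under mock the sign of the lag-1 estimate turned with scaling by library totals alone, to 0.04.

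The target genes sygl-1 and lst-1 depend on GLP-1 signalling in the stem cell pool. sygl-1 had 6.74 and 5.70 CPM in glp-1 rege-1 RNAi libraries and 4.06 and 4.03 CPM in glp-1 mock libraries, against 6.26 and 9.28 CPM in N2 rege-1 RNAi and 6.76 and 5.95 CPM in N2 mock libraries. The glp-1 mock libraries held the lowest levels, apart from all the others. The log2 change of sygl-1 was -0.65 ± 0.22 (SE) under mock (edgeR adjusted p = 0.0921) and -0.32 ± 0.22 under rege-1 RNAi (edgeR adjusted p = 0.313). Under rege-1 RNAi it was -0.57 without N2 rege-1 RNAi replicate 1 and -0.01 without N2 rege-1 RNAi replicate 2. Under mock it ranged from -0.74 to -0.56 with 1 library left out and passed in none of those fits. It passed the threshold there where the 2 mock groups were fitted alone (adjusted p = 0.0401) and where the length trend was removed (adjusted p = 0.0469).

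lst-1 had 32.5 and 33.2 CPM in glp-1 rege-1 RNAi and 28.9 and 31.6 CPM in glp-1 mock libraries, against 39.1 and 40.8 CPM in N2 rege-1 RNAi and 38.01 and 34.9 CPM in N2 mock libraries. All glp-1 libraries were below all N2 libraries. The log2 changes of lst-1 were nearly alike, -0.27 ± 0.13 (SE) under mock (edgeR adjusted p = 0.205) and -0.28 ± 0.13 under rege-1 RNAi (edgeR adjusted p = 0.140), and neither passed the threshold.

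Of the PUF-family repressors, fbf-1 had 13.5 and 14.2 CPM in glp-1 rege-1 RNAi and 11.96 and 12.2 CPM in glp-1 mock libraries, against 14.6 and 13.8 CPM in N2 rege-1 RNAi and 15.8 and 13.3 CPM in N2 mock libraries. Its strains overlapped under rege-1 RNAi but not under mock, where they lay close together. The log2 change of fbf-1 was -0.27 ± 0.16 (SE) under mock (edgeR adjusted p = 0.317) and -0.04 ± 0.16 under rege-1 RNAi (edgeR adjusted p = 0.890), where the 95% interval ran from -0.39 to 0.32. The sign under rege-1 RNAi turned with scaling by library totals alone, to 0.12.

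fbf-2 had 10.2 CPM in both glp-1 rege-1 RNAi libraries and 10.3 and 10.5 CPM in glp-1 mock libraries, against 13.8 and 13.9 CPM in N2 rege-1 RNAi and 14.2 and 11.6 CPM in N2 mock libraries. Here the strains did not overlap under either treatment. The log2 change of fbf-2 was -0.32 ± 0.17 (SE) under mock (edgeR adjusted p = 0.253) and -0.45 ± 0.17 under rege-1 RNAi (edgeR adjusted p = 0.0828).

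gld-1 encodes a repressor of translation that promotes entry into meiosis, and its mRNA is a known target of FBF-1 and FBF-2. It had 185 and 183 CPM in glp-1 rege-1 RNAi and 178 and 181 CPM in glp-1 mock libraries, against 267 and 283 CPM in N2 rege-1 RNAi and 227 and 229 CPM in N2 mock libraries. The 4 glp-1 libraries agreed within a few CPM and lay below all N2 libraries. gld-1 was lower in glp-1 animals under rege-1 RNAi (log2 -0.58 ± 0.13 SE, edgeR adjusted p = 0.0127) but did not pass under mock (log2 -0.35 ± 0.13 SE, edgeR adjusted p = 0.108). Under rege-1 RNAi the call was lost without N2 rege-1 RNAi replicate 2 (log2 -0.54, edgeR adjusted p = 0.113) and with only the 2 groups compared in the fit (log2 -0.58, edgeR adjusted p = 0.0719). Under mock gld-1 passed with the 2 mock groups fitted alone (log2 -0.33, edgeR adjusted p = 0.0348), and without glp-1 rege-1 RNAi replicate 1 (log2 -0.33, edgeR adjusted p = 0.0346) or replicate 2 (log2 -0.35, edgeR adjusted p = 0.0287).

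**Figure D2:**
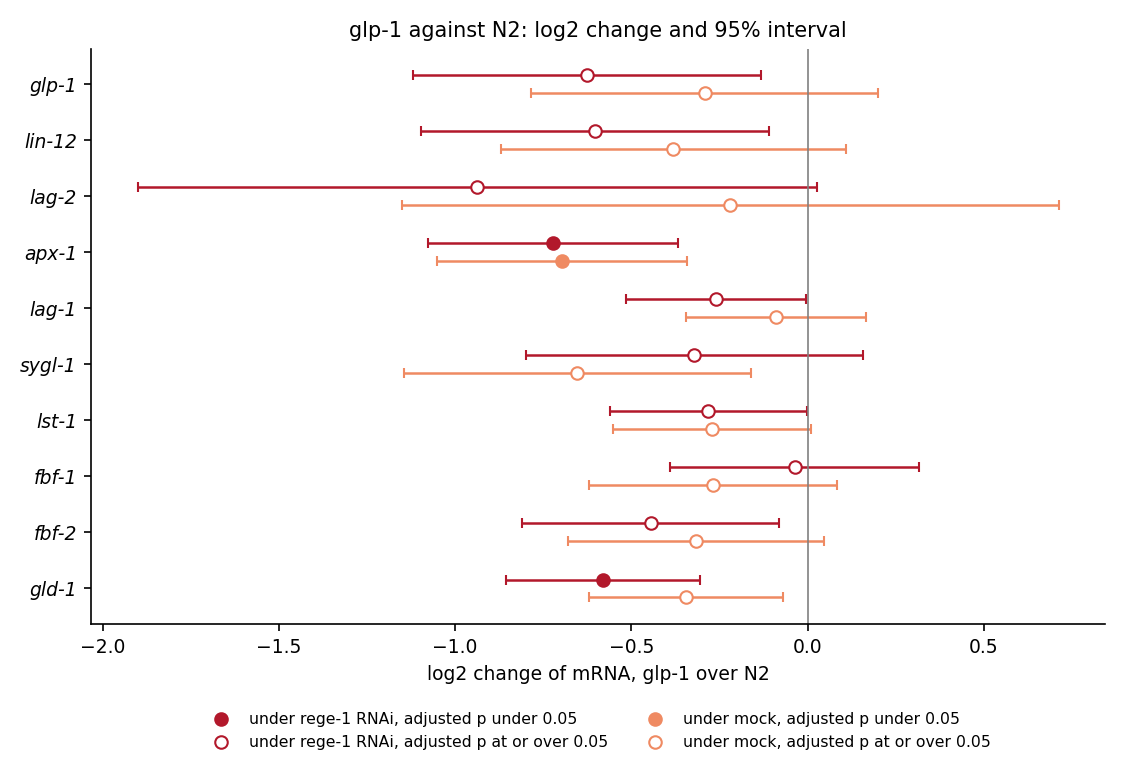
log2 change of mRNA in glp-1 over N2 animals (horizontal axis) for the 10 genes, under rege-1 RNAi and under mock, with bars for the 95% interval of edgeR's fit of 8 libraries and filled points for adjusted p under 0.05. The filled points are apx-1 under both treatments and gld-1 under rege-1 RNAi, and no estimate lies above 0.

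In CPM, the glp-1 and N2 libraries did not overlap for 8 of the 10 genes under mock, all with glp-1 lower, where 30.3% of all genes tested did so. The exceptions were lin-12 and lag-2. Under rege-1 RNAi the count was also 8 of 10, against 29.3% of all genes, and the exceptions were sygl-1 and fbf-1. For apx-1, lag-1, lst-1, fbf-2 and gld-1, or 5 of 10 genes, all 4 glp-1 libraries lay below all 4 N2 libraries, where 14.3% of all genes did so. Some margins under mock were narrow, with the nearest libraries of the 2 strains at 334 and 338 CPM for glp-1. For lag-1 they were at 74.9 and 76.1 CPM. Whether these counts hold under scaling other than TMM was not tested.

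Germline transcripts were present in every glp-1 library, and some lists of them held genes called lower and others genes called higher. The 17 germline markers, which are genes of P granules and meiosis, summed to between 2061 and 2147 CPM in glp-1 rege-1 RNAi and between 2070 and 2094 CPM in glp-1 mock libraries, against 2640 to 2746 CPM in N2 rege-1 RNAi and 2677 to 3042 CPM in N2 mock libraries. None of the 17 was at 0 in any library. The 12 oocyte markers summed to 5088 to 5141 CPM in glp-1 rege-1 RNAi and 4897 to 5003 CPM in glp-1 mock libraries, against 6403 to 6692 CPM in N2 rege-1 RNAi and 4938 to 6451 CPM in N2 mock libraries, also with none at 0. Under mock, the oocyte sums of the strains overlapped. Whether the labelled glp-1 animals had lost receptor function was not tested. The part of germline RNA content in the levels of the 10 genes was not tested either.

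Of the germline markers, 5 of 17 were lower in glp-1 under mock and 4 of 17 under rege-1 RNAi, and none was higher. The share of all genes tested that was called lower was 3.24% under mock and 7.54% under rege-1 RNAi. DESeq2 called 5 of the 17 in each contrast, and limma 3. The P granule helicase genes glh-1 and glh-2 were the clearest under mock (log2 -1.09 ± 0.15 and -1.08 ± 0.15 SE, edgeR adjusted p = 0.00100 and 0.00110). glh-4 and syp-4, a gene of the synaptonemal complex, were lower as well (log2 -0.64 and -0.66 under mock). The median log2 change of the list was -0.29 under mock and -0.35 under rege-1 RNAi, next to -0.30 and -0.51 for the 10 genes. Of 12 oocyte markers, 0 were called by edgeR under mock (0 at an unadjusted p under 0.05, 0 by DESeq2 and 0 by limma), and 2 were lower under rege-1 RNAi, oma-1 and oma-2 (log2 -0.48 and -0.55).

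Sperm markers ran the other way. Under mock 4 of 17 tested were higher in glp-1 animals, where 6.49% of all genes tested were called higher, and under rege-1 RNAi 8 of 17 were higher, where 10.6% were. DESeq2 called 7 and 8 of the 17, and limma 9 and 11. The list's medians were 0.67 and 0.82. Genes higher under mock included ssp-16 and gsp-4, a sperm phosphatase gene (log2 1.28 and 0.89). Also among them were spe-4, which encodes a presenilin-family protein of sperm, and spe-41, which encodes a sperm channel (log2 0.96 and 0.67). Summed sperm marker mRNA was 269 to 295 CPM in glp-1 rege-1 RNAi and 276 to 277 CPM in glp-1 mock, against 187 to 218 CPM in N2 rege-1 RNAi and 183 to 236 CPM in N2 mock libraries.

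Among genes that act with FBF or govern entry into meiosis, 2 of 18 were lower in glp-1 under mock, namely cgh-1 (log2 -0.60, edgeR adjusted p = 0.0359), which encodes an RNA helicase of germ granules, and atx-2 (log2 -0.51, edgeR adjusted p = 0.0441). Under rege-1 RNAi 8 of 18 were lower, among them gld-4, which encodes a poly(A) polymerase (log2 -0.87, edgeR adjusted p = 0.00442). Of 17 genes of DNA replication, mcm-2 was the only edgeR call under mock (log2 -0.48, edgeR adjusted p = 0.0437), and 8 were lower under rege-1 RNAi. Both lists stand beside 3.24% of all genes tested called lower under mock and 7.54% under rege-1 RNAi. Under mock and rege-1 RNAi, DESeq2 called 3 and 9 of these 17 in either direction, and limma 0 and 0. Of the 18 genes above, DESeq2 called 6 and 8, and limma 0 and 4. The medians of these lists were -0.25 and -0.27 under mock and -0.35 and -0.36 under rege-1 RNAi.

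Of 35 tested genes in 4 other Notch lists, 1 was lower in glp-1 animals under mock, glp-4, and 6 were lower under rege-1 RNAi. Of all genes tested, 3.24% and 7.54% were called lower, and 0 of the 35 were higher. In either direction, DESeq2 called 1 and 9 of the 35, and limma 0 and 1. Of 7 tested genes for other ligands, of which dsl-6 had the lowest p (log2 1.36 ± 0.46 SE, edgeR adjusted p = 0.0896), 0 were called by edgeR under mock (1 at an unadjusted p under 0.05, 0 by DESeq2, 0 by limma) and 0 under rege-1 RNAi (0 at an unadjusted p under 0.05, 0 by either other tool). Of 7 genes for the proteases that cut the receptor, among them the presenilin gene sel-12 and the ADAM protease gene sup-17 (log2 -0.35 for each under mock), edgeR called 0 under mock (1 at an unadjusted p under 0.05, 0 by either other tool). Under rege-1 RNAi it also called 0 proteases (3 at an unadjusted p under 0.05, 1 by DESeq2, 0 by limma).

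Of 11 tested genes on the list of the nuclear complex and modulators, glp-4 was lower under mock (log2 -0.55 ± 0.14 SE, edgeR adjusted p = 0.0310). glp-4 is not an established part of the Notch pathway, so its call is not that of a pathway gene. Under rege-1 RNAi 5 were lower, among them glp-4, sel-2 and sel-8 (log2 -0.55, -0.52 and -0.48). The list summed to 1994 CPM in glp-1 rege-1 RNAi replicate 1 and 2600 CPM in replicate 2. In the N2 rege-1 RNAi libraries it summed to 3137 and 3400 CPM. The part of that low library and of coding length in these calls was not tested. sel-8 encodes the coactivator that joins LAG-1 and the receptor's intracellular part. Of the 11, DESeq2 called 1 under mock and 7 under rege-1 RNAi, and limma 0 and 1. Of 10 other reported Notch targets, 0 were called under mock by edgeR (2 at an unadjusted p under 0.05, 0 by DESeq2, 0 by limma), and utx-1 was lower under rege-1 RNAi (log2 -0.55, edgeR adjusted p = 0.0257). Somatic gonad markers gave 0 calls of 11 by edgeR in either strain contrast (1 under mock and 0 under rege-1 RNAi at an unadjusted p under 0.05, 0 by DESeq2 in both, 0 and 1 by limma), with medians of 0.17 under mock and -0.15 under rege-1 RNAi.

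**Figure D3:**
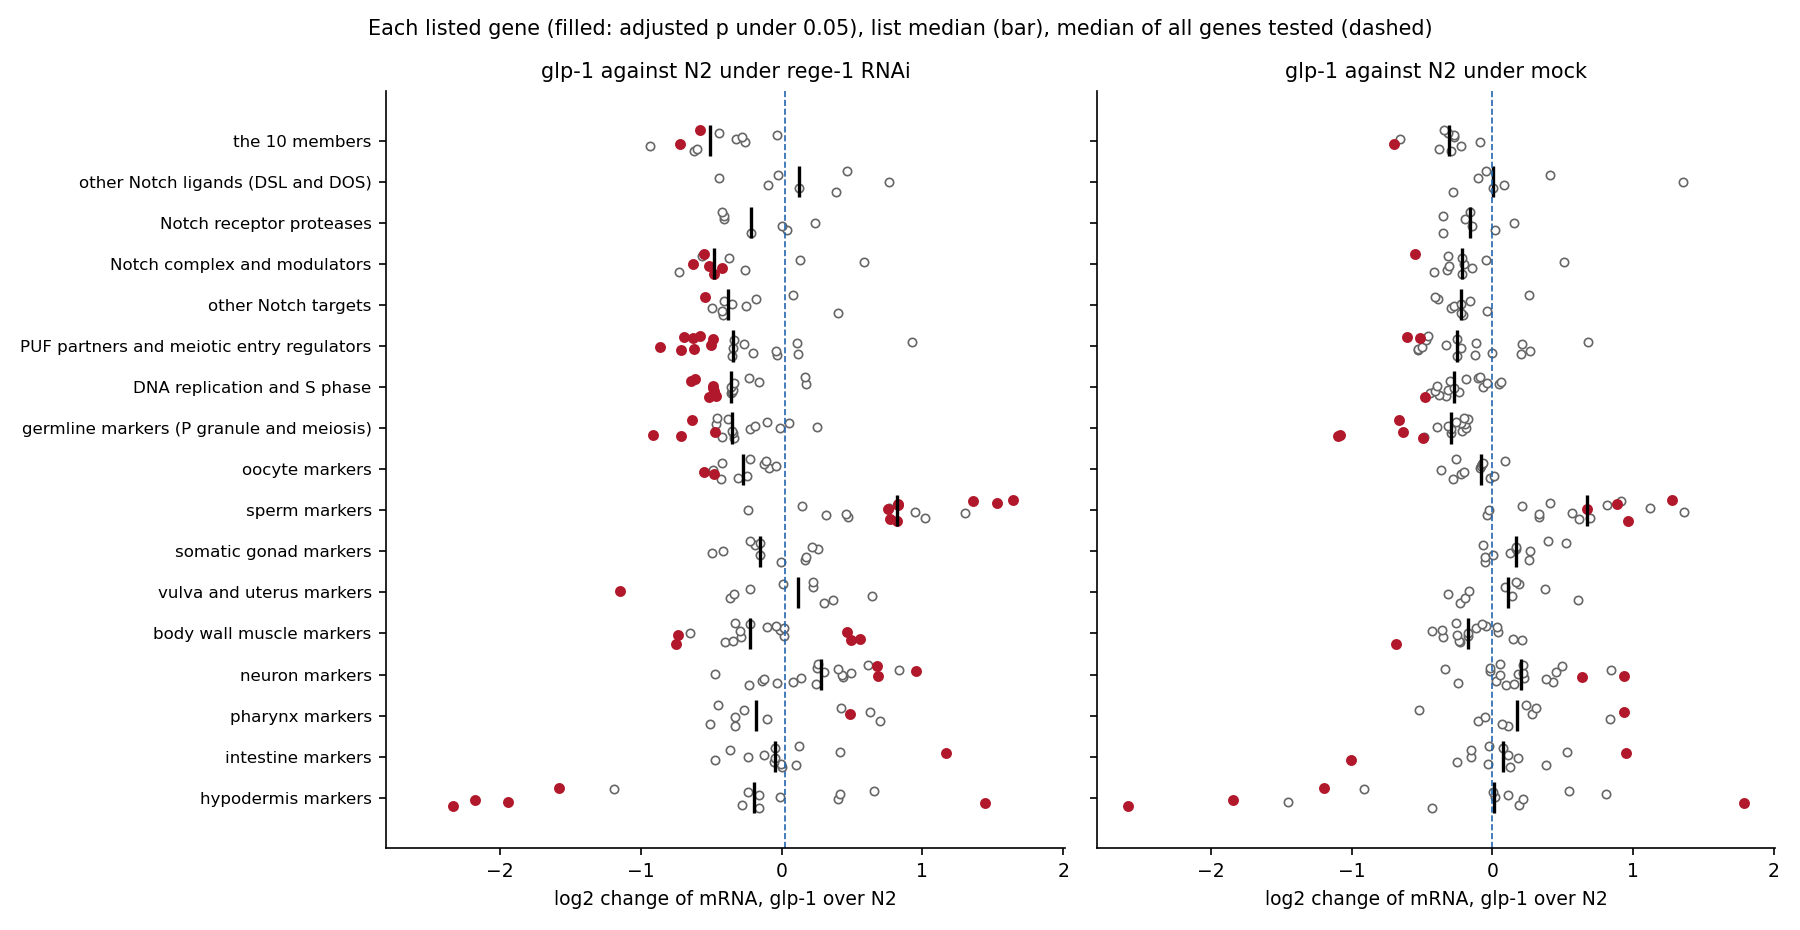
log2 change of mRNA in glp-1 over N2 animals (horizontal axes, 1 scale) for each tested gene of the 10 and of 16 other gene lists, under rege-1 RNAi (left) and mock (right), with filled points for an adjusted p under 0.05, a bar at each list's median and a dashed line at the median of all genes tested. The 10 genes lie to the left of the dashed line, as most germline markers do, while most sperm markers lie to the right, with medians of 0.82 under rege-1 RNAi and 0.67 under mock.

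Setting rege-1 RNAi against mock asks whether the libraries labelled rege-1 RNAi differ in the same pathway. In neither strain was any of the 10 genes called. In glp-1 animals edgeR called 0 of 10 (1 at an unadjusted p under 0.05, 0 by DESeq2 and 0 by limma), where 2.7% of all genes tested were called in either direction. In N2 edgeR called 0 of 10 (0 at an unadjusted p under 0.05, 0 by DESeq2 and 0 by limma), where 4.79% of all genes were called. With lag-2 left aside for its low counts, the 95% intervals of the other 9 genes lay between -0.81 and 1.11 in glp-1 and between -0.58 and 0.77 in N2, so that changes beyond about these sizes were outside them.

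The gene nearest to a call was sygl-1 in glp-1 animals, with 6.74 and 5.70 CPM under rege-1 RNAi against 4.06 and 4.03 CPM under mock. These groups did not overlap. Its log2 change was 0.62 ± 0.22 (SE), with a 95% interval from 0.13 to 1.11, and an edgeR adjusted p of 0.294. In N2 the log2 change of sygl-1 was 0.29, and 1 N2 rege-1 RNAi library lay between the mock libraries. The difference of the sygl-1 changes between strains was 0.33 (edgeR adjusted p = 0.892), so the strains were not shown to differ.

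gld-1 had the lowest adjusted p of the 10 genes in N2, at 267 and 283 CPM under rege-1 RNAi against 227 and 229 CPM under mock, with a log2 change of 0.27 (edgeR adjusted p = 0.387). In glp-1 animals it stood at 185 and 183 CPM under rege-1 RNAi and 178 and 181 CPM under mock, a log2 change of 0.04. For the receptor gene glp-1 the log2 change was -0.24 in glp-1 and 0.09 in N2. In glp-1 animals the value rested on which rege-1 RNAi library was kept, with 0.07 without replicate 1 and -0.66 without replicate 2 (edgeR adjusted p = 0.0413). lin-12 gave -0.32 in glp-1 and -0.10 in N2, and lag-2 gave -0.43 and 0.29.

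Between rege-1 RNAi and mock, the libraries did not overlap for 8 of the 10 genes in glp-1, of which 5 were higher, where 23.4% of all genes were, and 3 lower, where 21.8% were. In N2, 4 of 10 were higher without overlap, where 19.4% of all genes were, and 0 lower, where 21.8% were. The change itself depended on strain for 0 of the 10 genes by edgeR (0 at an unadjusted p under 0.05, 0 by DESeq2 and 0 by limma), where 0.0261% of all genes tested were called. The estimates of that difference, the change in glp-1 minus that in N2, ran from -0.72 for lag-2 to 0.33 for sygl-1.

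Genes around the pathway gave no calls either. Of the 35 tested genes in the other 4 Notch lists, edgeR called 0 in glp-1 (0 at an unadjusted p under 0.05, 0 by DESeq2 and 0 by limma) and 0 in N2 (1 at an unadjusted p under 0.05, 0 by either other tool). Of the 81 tested genes in the 5 germline lists, it called 0 in glp-1 (1 at an unadjusted p under 0.05, 0 by either other tool) and 0 in N2 (8 at an unadjusted p under 0.05, 0 by either other tool). Calls in the same libraries were found among intestine markers, where 5 of 13 were higher and 1 lower under rege-1 RNAi in each strain. The shares of all genes tested were 1.89% called higher and 0.816% called lower in glp-1, and 3.13% and 1.66% in N2. asp-1, an intestinal aspartyl protease gene, had a log2 change of 2.54 in glp-1 and 2.35 in N2.

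**Figure D4:**
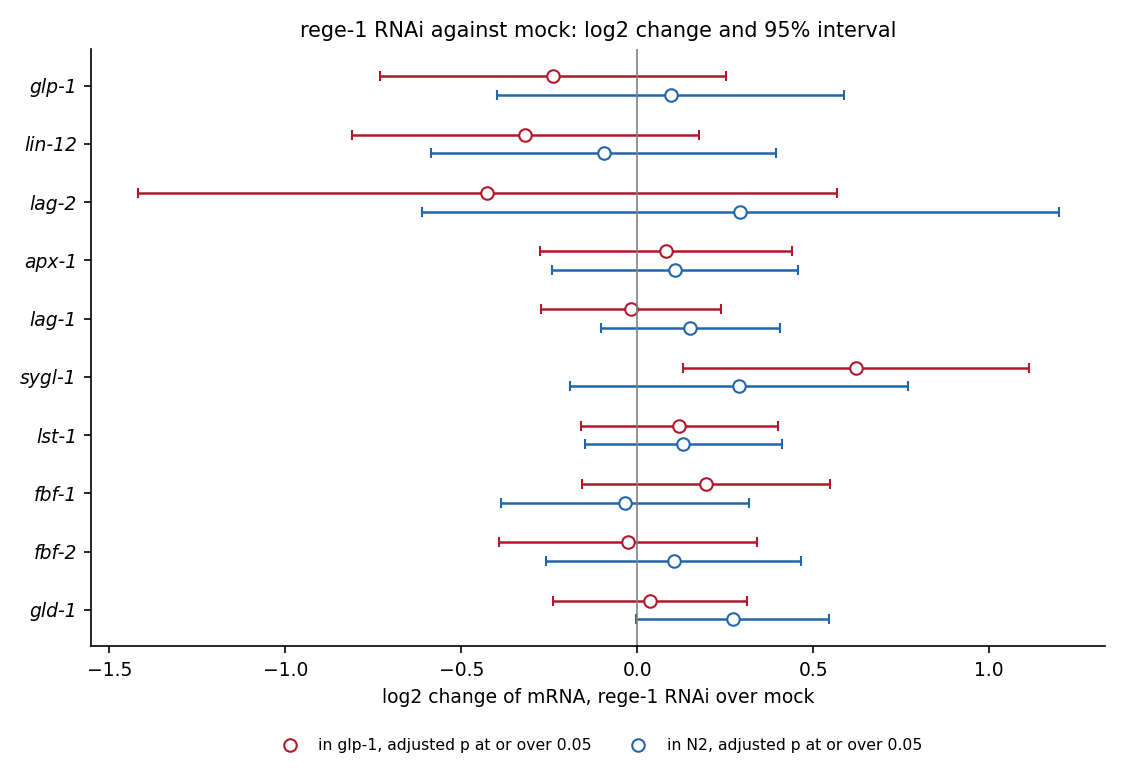
log2 change of mRNA under rege-1 RNAi over mock (horizontal axis) for the 10 genes in glp-1 and in N2 animals, with bars for the 95% interval. All points are open, since no adjusted p was under 0.05, and the interval of sygl-1 in glp-1, from 0.13 to 1.11, is the only one in glp-1 that leaves out 0.

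Reads in introns come mainly from RNA that is not yet spliced and give a second reading of the same genes. Only 4 of the 10 genes had enough intron counts to be tested: lag-1 with 109 to 188 per library, glp-1 with 44 to 82, apx-1 with 33 to 67 and lin-12 with 36 to 63. The other 6 had at most 7 in any library, and lag-2 had 0 in all 8, which allows up to 3 per library. Intron counts per kb were 2.76% of coding counts per kb for lin-12, 2.36% for apx-1, 1.06% for lag-1 and 0.777% for glp-1, so of these genes glp-1 had the least intron signal for its mRNA.

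Introns of apx-1 were at 63.2 ± 14.8 CPM in glp-1 rege-1 RNAi and 60.8 ± 18.6 CPM in glp-1 mock libraries, against 92.6 ± 3.37 CPM in N2 rege-1 RNAi and 113 ± 1.40 CPM in N2 mock libraries (SD, n = 2 each). Averaged over treatments, the log2 change of apx-1 introns in glp-1 over N2 was -0.72 ± 0.23 (SE, edgeR adjusted p = 0.114), next to -0.70 and -0.72 for its mRNA, but it did not pass the threshold. Those of glp-1, lag-1 and lin-12 introns were -0.20, -0.14 and -0.06. edgeR called 0 of 4 genes by introns between strains (1 at an unadjusted p under 0.05, 0 by DESeq2), where 1.55% of the 5042 genes tested were called. Between rege-1 RNAi and mock it also called 0 of 4 (0 at an unadjusted p under 0.05, 0 by DESeq2), where 2.08% of all genes tested were called.

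Ratios of counts within a library do not depend on how libraries are scaled, and 4 were compared between the 4 glp-1 and the 4 N2 libraries. They keep each library's trend over coding length, which was not removed here. This matters most for genes of unlike length, such as sygl-1 with 621 and glp-1 with 3888 bases. The ratio of fbf-1 to fbf-2 was 1.33 and 1.39 in glp-1 rege-1 RNAi and 1.16 and 1.17 in glp-1 mock libraries, against 1.05 and 0.995 in N2 rege-1 RNAi and 1.11 and 1.15 in N2 mock libraries. All glp-1 libraries were above all N2 libraries. The log2 difference was 0.23 (two-sided exact permutation test, p = 0.0286, the smallest that 4 against 4 libraries allow), but the p adjusted over the 4 ratios was 0.114. The test treated the 4 libraries of a strain as exchangeable, although they fall in 2 treatment groups. Within 1 treatment, with 2 against 2 libraries, this permutation test could give no p below 0.333.

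The ratio of the receptors, glp-1 to lin-12, had a geometric mean of 8.60 in glp-1 and 8.60 in N2 libraries (exact permutation p = 1). It ranged from 7.88 to 9.71 in glp-1 and from 5.55 to 11.6 in N2 libraries, so that differences within this spread would not have been seen. The ratio of sygl-1 to glp-1, a target to its receptor, ran from 0.0121 to 0.0326 in glp-1 and from 0.0145 to 0.0212 in N2 libraries. Its geometric means were 0.0169 in both strains (exact permutation p = 1). These means pool both treatments, and a difference of the ratio between treatments was not tested. Under mock the ratio was 0.0126 and 0.0121 in glp-1, below 0.0145 and 0.0176 in N2. Under rege-1 RNAi it was 0.0326 and 0.0164 in glp-1, against 0.0149 and 0.0212 in N2. The value of 0.0326 came from replicate 1, the library lowest in glp-1 mRNA. Equal means over both treatments thus do not show that the ratio was alike within each. The ratio of the target genes, sygl-1 to lst-1, had a geometric mean of 0.159 in glp-1 and 0.183 in N2 libraries, a log2 difference of -0.20 (exact permutation p = 0.343, 0.686 adjusted over 4 ratios).

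**Figure D5:**
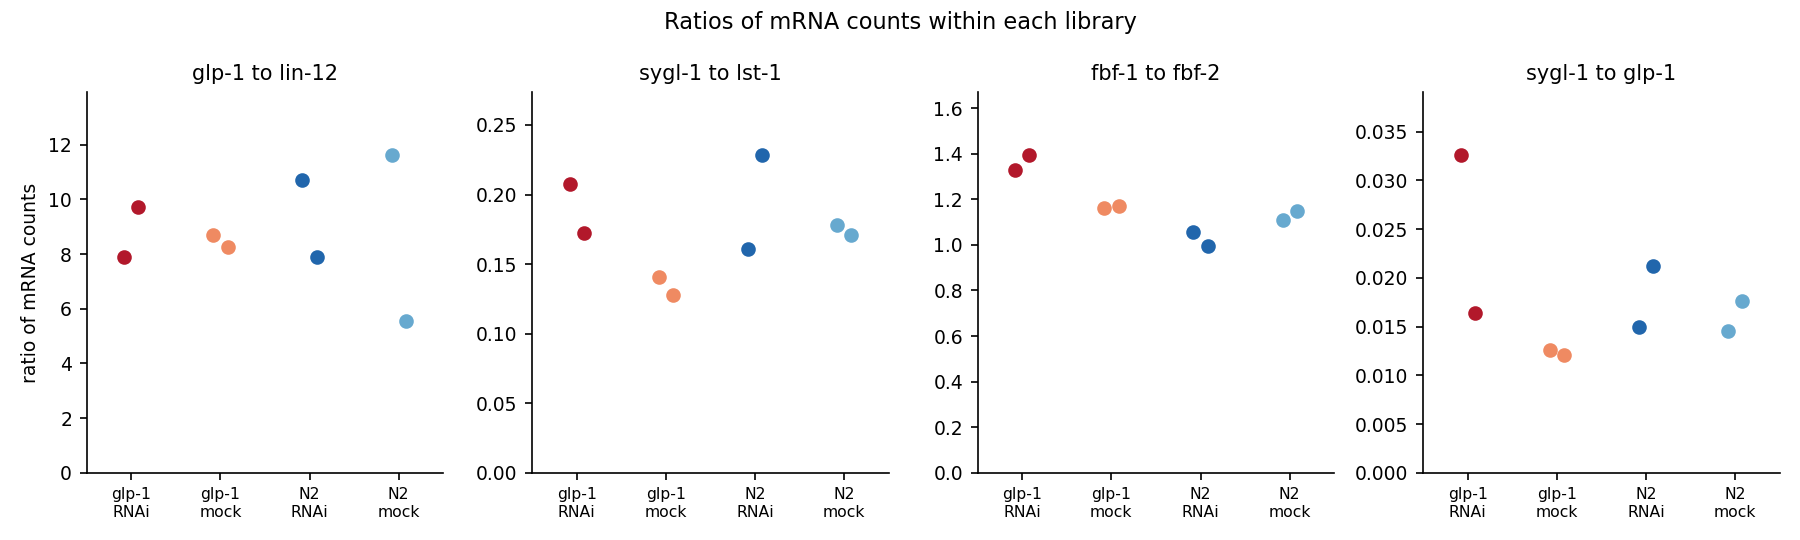
Ratios of mRNA counts (vertical axes from 0, a separate scale for each ratio) within each of the 8 libraries, with 1 point per library and the groups from left to right as glp-1 rege-1 RNAi, glp-1 mock, N2 rege-1 RNAi and N2 mock. The ratio of fbf-1 to fbf-2 lies between 1.16 and 1.39 in the glp-1 libraries, above the N2 libraries at 0.995 to 1.15, and the other 3 ratios overlap between strains.

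The genes whose levels followed those of glp-1 most closely over the 8 libraries were found by the root mean square (RMS) difference of log2 CPM, each gene centred on its own mean, among the 9620 genes whose mean reached 5 CPM. They were dcaf-1 (RMS 0.039), F19F10.11 (0.055), F33H1.4 (0.061), unc-40 (0.067), the gene of a netrin receptor, and R09A8.1 (0.070), where the median gene was at 0.364. All 5 have long coding sequences, from 3288 to 5106 bases, as does glp-1 with 3888 bases, where the median of the genes compared was 1233 bases, and the part of coding length in this likeness was not tested. The nearest of the other 9 genes to glp-1 was fbf-2 (0.219). lin-12 stood at 0.307 and sygl-1 at 0.430.

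For sygl-1 the closest genes were slc-17.6 (RMS 0.113), pdi-6 (0.142), dnj-20 (0.142), crt-1 (0.145) and Y50D7A.1 (0.153), where the median gene was at 0.402. pdi-6 encodes a protein disulfide isomerase and crt-1 calreticulin, both of the endoplasmic reticulum. Of the 10 genes, gld-1 (0.247) and lst-1 (0.251) were nearest to sygl-1. These likenesses rest on 8 libraries that all genes share, and are descriptions without a test.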

How the data were processed

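Per the labels, whole young adults gave total RNA for ScriptSeq v2 libraries. The authors deposited a table of raw counts for mRNA and another for introns, each with a width per gene, as well as log2 values of both. From the values, each deposited log2 value equals that of a count brought to the mean library total, with 8 added. The mRNA widths were multiples of 3 for 96.6% of genes and are taken as coding length. For the aligner, genome build, annotation and strand setting, the sources used here give nothing. Positions come from Ensembl release 115.

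Groups follow the sample titles. Counts were tested with edgeR 4.0.16 in R 4.3.3 (TMM, filterByExpr with a minimum count of 10, quasi-likelihood with robust estimation, 4 groups in 1 fit, 4 residual degrees of freedom), and p-values were adjusted by Benjamini-Hochberg over 15321 genes for mRNA or 5042 for introns. The test is two-sided. The SE is the log2 change divided by the square root of F. Alternatives were DESeq2 1.42.0, limma 3.58.1 on the deposited log2 values, other size factors, no filter, a replicate block, the compared groups alone, removal of each library's coding length trend, and each library left out. In simulated counts edgeR's share of false calls for mRNA was above the adjusted p threshold, so calls near it, those of apx-1 and gld-1 included, may be false more often than it states. Ratios of counts (plus 0.5 each) were compared by exact permutation tests.

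The 10 genes, the 16 other lists and the tests were chosen with earlier results of these data known. Named were the 10 genes, up to 4 genes per described list with the lowest p in the strain contrast under mock, and the 5 genes most like glp-1 and sygl-1. Lists were described by counts and medians, without a test, and 6 of their symbols matched no gene. The 2 libraries of every group differed beyond counting error: the chi-square per gene averaged from 3.36 in glp-1 mock to 53.9 in glp-1 rege-1 RNAi, where counting error gives about 1. Intervals cover the spread of libraries as fitted.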

Additional observations from a re-analysis of the deposited data

How the results depend on the processing

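Counts of called genes moved with the libraries kept. With 1 library left out, calls in glp-1 against N2 ranged from 458 to 2304 under mock (1491 with all libraries; lowest without glp-1 mock replicate 2, highest without glp-1 rege-1 RNAi replicate 2) and from 517 to 4031 under rege-1 RNAi (2774; lowest without N2 rege-1 RNAi replicate 2), with 0 to 2 and 0 to 3 of the 10 genes called. Calls of rege-1 RNAi against mock ranged from 189 to 1454 in glp-1 (414; highest without glp-1 rege-1 RNAi replicate 2) and from 423 to 822 in N2 (734), with 0 to 1 and 0 to 0 of the 10. The strain dependence ranged from 0 to 415 (4; highest without glp-1 rege-1 RNAi replicate 2), and introns from 26 to 115 between strains (78) and from 60 to 103 between treatments (105), with 0 members called. The ratios ranged from -0.21 to 0.15 for glp-1 to lin-12, -0.33 to -0.09 for sygl-1 to lst-1, 0.18 to 0.27 for fbf-1 to fbf-2 and -0.31 to 0.16 for sygl-1 to glp-1, at a smallest possible p of 0.0571.

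Fitting the compared groups alone gave 2448 calls and 3 of the 10 genes under mock, and 875 calls and 0 of the 10 under rege-1 RNAi. Under mock, 0 of the 10 were called with size factors from muscle, neuron and pharynx markers and 2 with the length trend removed. Under rege-1 RNAi DESeq2 called 4. Genes with a strain-dependent change numbered 7 with those marker size factors, 11 without a filter, 30 with DESeq2, 12 with the length trend removed and 8 with the replicate block. Introns gave 145 strain calls without a filter and 45 with DESeq2. Signs turned for the ratio of glp-1 to lin-12 in rege-1 RNAi libraries alone (-0.075) and of sygl-1 to glp-1 in mock libraries alone (-0.37). The causes were not tested.

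Of 480 values of single genes under alternatives that kept all libraries, 452 kept their sign and side of the threshold and 19 changed sign, none of them called. Under library totals alone and limma on deposited log2 values, lag-1 between strains under mock became 0.041 and 0.040, fbf-1 between strains under rege-1 RNAi 0.12 in both, gld-1 under RNAi in glp-1 -0.0058 and -0.0059, and the strain dependence 0.0052 and 0.0061 for apx-1 and 0.020 in both for lst-1. Without the length trend, fbf-1 between strains under rege-1 RNAi became 0.069, fbf-2 and lag-1 under RNAi in glp-1 0.021 and 0.040, and the strain dependence of lin-12 0.011. Under marker size factors, apx-1, lst-1 and gld-1 under RNAi in glp-1 became -0.070, -0.034 and -0.12. With mRNA size factors lin-12 introns between strains became 0.029, and with the block lag-1 introns between treatments became -0.00084. Library totals alone shifted the median of all genes between strains to 0.13 under mock and 0.18 under rege-1 RNAi.

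With 1 library left out, uncalled estimates crossed 0 in these ranges. Between strains under rege-1 RNAi, fbf-1 ranged from -0.097 to 0.0089. Under RNAi in glp-1, glp-1 ranged from -0.66 to 0.073 and lag-1 from -0.052 to 0.026. Under RNAi in N2, glp-1 ranged from -0.12 to 0.34, fbf-2 from -0.036 to 0.26, fbf-1 from -0.15 to 0.092, lin-12 from -0.37 to 0.24 and sygl-1 from -0.015 to 0.55. For the strain dependence, fbf-2 ranged from -0.29 to 0.010, apx-1 from -0.11 to 0.030, lin-12 from -0.55 to 0.048 and lst-1 from -0.096 to 0.052. For introns, lin-12 between strains ranged from -0.22 to 0.074, and between treatments glp-1 ranged from -0.16 to 0.0997, lag-1 from -0.11 to 0.12 and apx-1 from -0.25 to 0.061.

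Replicate numbers were not found to pair the samples: deviations of same-numbered libraries correlated at 0.016 between strains under mock, 0.070 under rege-1 RNAi, -0.037 between treatments in glp-1 and 0.169 in N2. With the replicate block edgeR called 1 of the 10 genes between strains under mock and 3 under rege-1 RNAi, where lin-12 was added (adjusted p = 0.0177). With 2 libraries a group, 1 library decides many calls, and lag-2 and most intron counts are too few to show moderate changes.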

Other observations

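Some markers of somatic tissues were called between the strains, where 9.73% of all genes tested were called in either direction under mock and 18.1% under rege-1 RNAi. Of 14 hypodermis markers, under mock 1 was higher and 3 were lower in glp-1 animals, and under rege-1 RNAi 1 was higher and 4 were lower. Of the cuticle genes, dpy-5, a protease gene, averaged 112.1 ± 8.94 CPM in glp-1 rege-1 RNAi and 84.4 ± 12.2 CPM in glp-1 mock libraries, against 41.1 ± 11.1 CPM in N2 rege-1 RNAi and 24.3 ± 16.4 CPM in N2 mock libraries (SD, n = 2 each). Its log2 change was 1.79 under mock (edgeR adjusted p = 0.0100). The collagen gene rol-6 went the other way, with 0.97 and 0.44 CPM on average in the glp-1 groups against 4.90 and 2.67 CPM in the N2 groups (rege-1 RNAi, then mock, in each), a log2 change of -2.59 under mock (edgeR adjusted p = 0.0118). The collagen gene bli-1 and qua-1 were lower as well (log2 -1.84 and -1.19 under mock).

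Of 20 neuron markers, 2 were higher in glp-1 animals under mock and 3 under rege-1 RNAi, and 0 were lower. rab-3, a gene of synaptic vesicles, had a log2 change of 0.93 under mock and 0.68 under rege-1 RNAi (edgeR adjusted p = 0.0172 and 0.0437). Of 17 body wall muscle markers, 1 was lower under mock, the myosin gene myo-3 (log2 -0.68, edgeR adjusted p = 0.0240), while 3 were higher and 2 lower under rege-1 RNAi. Of 10 pharynx markers 1 was higher in each contrast, and of 13 intestine markers 1 was higher and 1 lower under mock and 1 was higher under rege-1 RNAi. Of 10 vulva and uterus markers 0 were called under mock by edgeR (1 at an unadjusted p under 0.05, 0 by DESeq2, 0 by limma) and 1 was lower under rege-1 RNAi. The share of germline and somatic RNA in these differences was not tested.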
